A study of Mus musculus with 16 samples.

Results

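Matrix metalloproteinases and their tissue inhibitors were examined in whole lung RNA of female BALB/c mice, an inbred laboratory strain. The 8 genes were Mmp2, Mmp3, Mmp9, Mmp12, Mmp14, Timp1, Timp2 and Timp3, among 18193 genes with an annotated probe set on Affymetrix whole-genome mouse arrays. For each gene the probe set with the highest mean over all arrays was taken among those that carry its symbol alone, with no expression filter. Each of the 8 would also have passed a filter that asks for a signal above the array median on 4 or more arrays.

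Mice were given titanium dioxide particles (TiO2, 50 ug suspended in phosphate-buffered saline, PBS) or PBS alone once into the nose, under light halothane anaesthesia. Lung RNA was taken 19 hours later. The groups were pregnant mice after TiO2, non-pregnant mice after TiO2, pregnant mice after PBS and non-pregnant mice after PBS, with 4 samples and 4 arrays each, and pregnant mice were at gestation day 14. The particles had been baked to remove endotoxin, no mouse carried an engineered allele, and the stated question was whether pregnancy alters the slight inflammation that inert particles cause. Whether each sample came from 1 mouse is not stated, so p-values measure the spread between these samples.

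Matrix metalloproteinases are zinc-dependent enzymes that cut collagen, elastin, gelatin and other proteins outside the cell, and most are made as inactive precursors. The tissue inhibitors (TIMPs) bind their active sites and hold them in check. In lung the enzymes come from macrophages, neutrophils, fibroblasts and epithelium, and they are known for their part in leukocyte passage, tissue repair and the loss of elastic fibres in emphysema.

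Lung markers were high on every array, with the surfactant gene Sftpc between 13.1 and 13.5 log2 and the airway secretory gene Scgb1a1 between 13.4 and 13.6. Xist, expressed in females, lay between 10.9 and 12.0. Some arrays stood apart in tissue content. Non-pregnant PBS replicates 3 and 4 carried the thymus gene Prss16 at 8.98 to 9.72, against 5.18 to 6.32 on the other 14 arrays. Pregnant TiO2 replicate 2 had the squamous keratin Krt13 at 5.21, against 10.7 to 12.8 on the other 15, and the muscle actin Acta1 at 6.56, against 11.9 to 12.5. The mean of 5 fat cell genes ran from 6.999 to 9.562 over the arrays. The labels of non-pregnant PBS replicate 2 conflict, which give both a pregnant and a non-pregnant mouse in different fields. The design text and the sample list in the labels both give 4 samples to each group, which places it with the non-pregnant mice.

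All levels below are log2(normalised intensity + 16), so a signal of 0 would read 4, and levels of different probe sets cannot be set against each other. A gene was called when its adjusted p in limma was below 0.05. Of the 7 comparisons run, only the one between pregnant and non-pregnant mice over both exposures called any of the 8 genes. It called Mmp9, higher in pregnant mice, and Mmp2, lower in them, against 2.3% of all genes called in that comparison. In the other 6 comparisons none was called, so 2 of 56 tests of a gene in a comparison passed. The comparisons share arrays and are not independent.

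**Figure D1:**
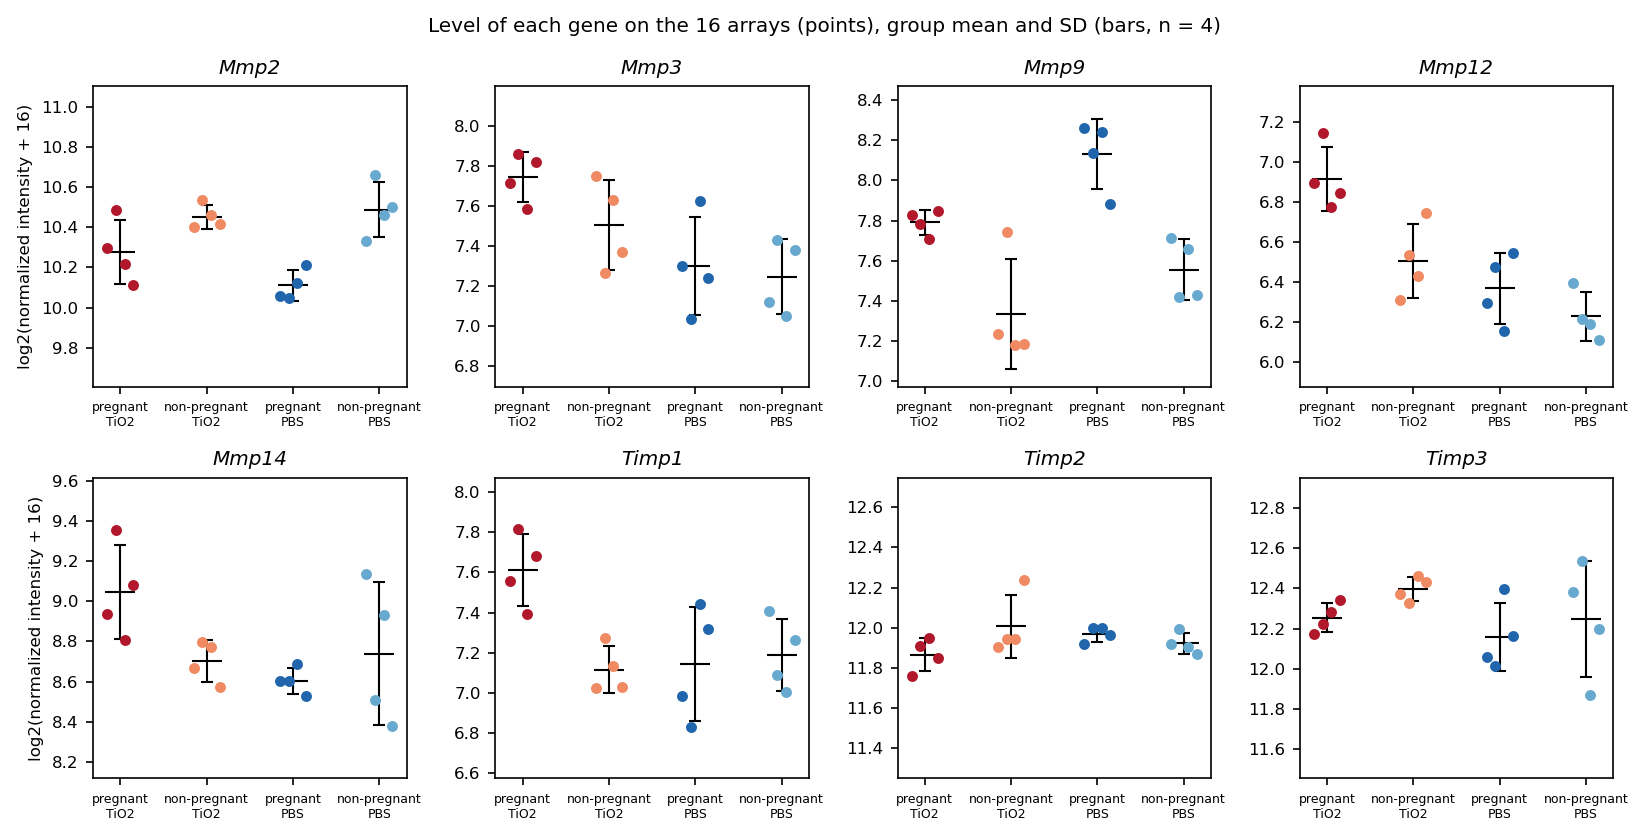
Level of each of the 8 genes on the 16 arrays as log2(normalised intensity + 16), 1 panel per gene with its own vertical range, with the mean and SD of each group of 4 as bars. Mmp9 is high in both pregnant groups, Mmp2 is low in pregnant mice after PBS, and Mmp3, Mmp12, Mmp14 and Timp1 have their highest mean in pregnant mice after TiO2.

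Mmp9 (probe set 1416298_at), or gelatinase B, cuts denatured collagen and type IV collagen and is stored in the granules of neutrophils. Its level was 7.83, 7.78, 7.71 and 7.85 in pregnant mice after TiO2, against 7.23, 7.74, 7.18 and 7.18 in non-pregnant mice after TiO2. After PBS it was 8.26, 8.14, 8.24 and 7.88 in pregnant mice, against 7.71, 7.42, 7.66 and 7.43 in non-pregnant mice. The 4 pregnant PBS arrays were the highest of all and lay above every non-pregnant PBS array. After TiO2 the groups were kept from separating by non-pregnant replicate 2, whose level lay above the lowest pregnant one.

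Over both exposures Mmp9 was 0.52 ± 0.09 higher in pregnant mice (SE, 95% interval 0.32 to 0.71), a fold of 1.43, with an adjusted p of 0.00697 in limma. The difference was 0.58 ± 0.13 after PBS (adjusted p = 0.0627 in limma) and 0.46 ± 0.13 after TiO2 (adjusted p = 0.114). Neither passed the test alone, where 0.506% of all genes were called after PBS and 0.775% after TiO2. The call was lost when the values were used as deposited, without scaling between arrays (0.54 ± 0.15, adjusted p = 0.186 in limma), and when the array with conflicting labels was counted as pregnant PBS (0.42 ± 0.12, adjusted p = 0.148). It held in each of 16 fits that left out 1 array, with adjusted p between 0.00127 and 0.0201. Without the 3 arrays that differ in tissue content it was 0.51 ± 0.11 (adjusted p = 0.0278 in limma).

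TiO2 went with a lower Mmp9 mean in both pregnancy states, but not beyond the test. Mmp9 averaged 7.79 ± 0.06 after TiO2 and 8.13 ± 0.17 after PBS in pregnant mice (SD, 4 arrays in each group, n = 4). These groups did not overlap, and a difference of -0.34 ± 0.13 had an adjusted p of 0.832 in limma. In non-pregnant mice it averaged 7.34 ± 0.27 after TiO2 and 7.55 ± 0.15 after PBS, a difference of -0.22 ± 0.13 (adjusted p = 0.666 in limma). The difference between these 2 responses was -0.12 ± 0.18.

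A second Mmp9 probe set, 1448291_at, gave a larger difference. It read 6.91, 7.07, 7.17 and 7.08 in pregnant mice after TiO2, against 6.05, 6.52, 6.52 and 6.18 in non-pregnant mice after TiO2. After PBS it read 7.54, 7.41, 7.57 and 7.36 in pregnant mice, against 6.81, 6.62, 6.84 and 6.36 in non-pregnant mice. Every pregnant array lay above every non-pregnant array, a separation upward that 0.24% of all 45037 probe sets shared. In a limma fit of all probe sets it was 0.78 ± 0.09 higher in pregnant mice over both exposures (adjusted p = 0.00109), where 0.937% of probe sets were called. It was also called within each exposure, with 0.81 ± 0.13 after PBS (adjusted p = 0.0189, 0.204% called) and 0.74 ± 0.13 after TiO2 (adjusted p = 0.0384, 0.129% called). Both Mmp9 probe sets thus ran the same way, and the one taken by the rule of highest mean showed the smaller difference.

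Markers of neutrophils were higher in pregnant mice, as Mmp9 was. The mean of the macrophage list, given with Mmp12 below, was also higher in them. Of the 11 neutrophil genes listed 10 were measured, and all 10 had a positive difference between pregnant and non-pregnant mice over both exposures. Of these 6 were called, against 1.76% of all genes called higher in that comparison. Among them were S100a9 at 1.31 ± 0.15 and Csf3r, the receptor of granulocyte colony-stimulating factor, at 0.96 ± 0.13. The mean of the list ran from 8.24 to 8.88 in pregnant mice after TiO2, against 7.85 to 8.29 in non-pregnant mice after TiO2. After PBS it ran from 8.77 to 9.31 in pregnant mice, against 8.00 to 8.30 in non-pregnant mice. Within pregnant mice 7 of the 10 genes were lower after TiO2 than after PBS, as Mmp9 was, with a median of -0.60 and none called. All 10 passed the expression filter, but the 4 arrays of a single group are enough for that, so low levels on other arrays remain possible. The part of neutrophil content in the Mmp9 difference was not tested. In whole lung RNA, fewer cells of a type and less RNA per cell cannot be told apart.

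The genes whose levels followed Mmp9 most closely over the 16 arrays, among 12365 genes, were Wfdc17, Ifitm6 and S100a9. Their Pearson correlations with Mmp9 were 0.92, 0.91 and 0.91, with Spearman values of 0.91, 0.89 and 0.88. As deviations from group means, which take out the differences between groups, the Pearson values were 0.63, 0.60 and 0.53. The arrays share the 4 groups and their tissue content.

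**Figure D2:**
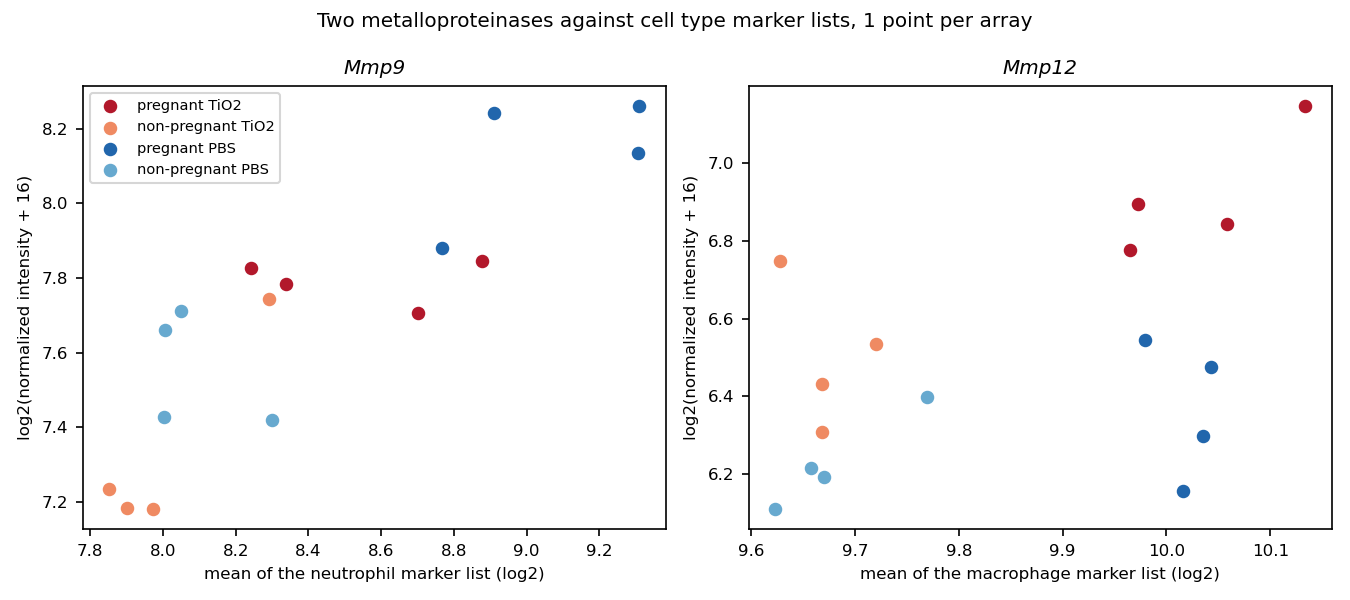
Mmp9 against the mean of the neutrophil marker list (left) and Mmp12 against the mean of the macrophage marker list (right), both in log2 units, with 1 point per array coloured by group. Arrays with a high neutrophil mean have high Mmp9, while the macrophage mean separates pregnant from non-pregnant mice, and Mmp12 ranges from 6.16 to 7.15 within the pregnant arrays.

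Mmp2 (probe set 1416136_at), or gelatinase A, is made by fibroblasts and other stromal cells and shares substrates with Mmp9. Its level was 10.30, 10.49, 10.22 and 10.11 in pregnant mice after TiO2, against 10.40, 10.54, 10.46 and 10.41 in non-pregnant mice after TiO2. After PBS it was 10.06, 10.05, 10.12 and 10.21 in pregnant mice, against 10.33, 10.66, 10.46 and 10.50 in non-pregnant mice. All 4 pregnant PBS arrays lay below all 4 non-pregnant PBS arrays, while after TiO2 pregnant replicate 2 reached into the non-pregnant range.

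Over both exposures Mmp2 was -0.28 ± 0.07 on the log2 scale in pregnant relative to non-pregnant mice (95% interval -0.42 to -0.14), or 0.826 times the non-pregnant level, with an adjusted p of 0.0375 in limma. The difference was -0.38 ± 0.09 after PBS (adjusted p = 0.101 in limma) and -0.18 ± 0.09 after TiO2 (adjusted p = 0.380). This call was lost in 12 of the 16 fits that left out 1 array, with adjusted p between 0.0187 and 0.0813 and differences between -0.31 and -0.25. It held without pregnant TiO2 replicate 2, pregnant PBS replicate 4, non-pregnant PBS replicate 1 or non-pregnant PBS replicate 3. Without the 3 arrays that differ in tissue content it was -0.32 ± 0.07 (adjusted p = 0.0349 in limma). It was also lost with values as deposited (-0.22 ± 0.14, adjusted p = 1.00 in limma), with scaling to a common trimmed mean (adjusted p = 0.0700) and with the array of conflicting labels counted as pregnant PBS (-0.19 ± 0.09, adjusted p = 0.401). A second Mmp2 probe set, 1439364_a_at, had a difference of -0.22 ± 0.07 over both exposures (adjusted p = 0.149 in limma over all probe sets).

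The fibroblast list had 8 of 10 measured genes with a negative difference over both exposures, with a median of -0.08. In it 1 gene was called, Tcf21, which was higher, against 1.76% of all genes called higher. Its mean ran from 11.2 to 11.5 in pregnant mice after TiO2, against 11.4 to 11.5 in non-pregnant mice after TiO2. After PBS it ran from 11.2 to 11.5 in pregnant mice, against 11.4 to 11.5 in non-pregnant mice. The part of stromal content in the Mmp2 difference was not tested. TiO2 went with small differences of Mmp2, 0.17 ± 0.09 in pregnant mice and -0.04 ± 0.09 in non-pregnant mice.

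Mmp2 and Mmp9 were the only pair of the 28 among the 8 genes whose levels over the 16 arrays passed a permutation test. Pearson's r was -0.738 (adjusted p = 0.0367) and Spearman's rho was -0.712 (adjusted p = 0.0706), both by permutation, two-sided and adjusted over the 28 pairs. Without the 2 arrays farthest from the median of Mmp2, r was -0.614. As deviations from group means r was -0.182 (adjusted p = 0.780 by permutation), so no relation within groups was shown. The permutation exchanged all 16 arrays without regard to group, and the genes differed by pregnancy in opposite directions. The test therefore cannot tell a relation between the genes from these group differences. Set, Lrpap1 and Mxra8 had the levels most like those of Mmp2, with Pearson correlations of 0.90, 0.89 and 0.88 over 16 arrays. As deviations from group means these were 0.78, 0.62 and 0.66.

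Mmp12 (probe set 1449153_at), or macrophage elastase, degrades elastin and is made by alveolar macrophages. Its level was 6.89, 7.15, 6.78 and 6.84 in pregnant mice after TiO2 and 6.31, 6.53, 6.43 and 6.75 in non-pregnant mice after TiO2. In the PBS groups it was 6.30, 6.47, 6.16 and 6.55 in pregnant mice and 6.40, 6.22, 6.19 and 6.11 in non-pregnant mice. The pregnant TiO2 arrays were the 4 highest of the 16, narrowly so against non-pregnant TiO2 replicate 4.

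In pregnant mice the difference between TiO2 and PBS was 0.55 ± 0.12 (95% interval 0.30 to 0.80), a fold of 1.46. Mmp12 stood at rank 11 of 18193 genes by p in that comparison, yet its adjusted p was 0.442 in limma, and no gene at all was called (0%). Without pregnant TiO2 replicate 2 and the other 2 arrays that differ in tissue content it was 0.47 ± 0.12. In non-pregnant mice the difference was 0.28 ± 0.12 (adjusted p = 0.534 in limma), and over both pregnancy states it was 0.41 ± 0.08 at rank 7 (adjusted p = 0.321). After TiO2 the difference between pregnant and non-pregnant mice was 0.41 ± 0.12 (adjusted p = 0.118 in limma). The difference between the TiO2 responses of pregnant and non-pregnant mice was 0.27 ± 0.17 (95% interval -0.08 to 0.62, adjusted p = 0.653 in limma).

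The mean of the macrophage markers separated the groups by pregnancy, and its ranges overlapped between exposures. Of 12 listed genes 11 were measured, and 10 had a positive difference between pregnant and non-pregnant mice over both exposures. The called ones were Marco, a scavenger receptor for particles, at 1.47 ± 0.27, Chil3 at 0.69 ± 0.10 and Cd68 at 0.51 ± 0.08. Over all genes 1.76% were called higher in that comparison. The list mean ran from 9.97 to 10.13 in pregnant mice after TiO2 and from 9.98 to 10.04 in pregnant mice after PBS. It ran from 9.63 to 9.72 in non-pregnant mice after TiO2 and from 9.62 to 9.77 in non-pregnant mice after PBS. Between TiO2 and PBS its median difference was 0.00 in pregnant and 0.03 in non-pregnant mice. The part of macrophage content in the Mmp12 values was not tested. Pigr, Cpne8 and Mtus2 had the levels most like those of Mmp12, with Pearson correlations of 0.85, 0.83 and 0.80 and Spearman values of 0.84, 0.81 and 0.69. As deviations from group means the Pearson values were 0.32, 0.84 and 0.44.

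Mmp3 (probe set 1418945_at), or stromelysin 1, cuts a wide range of matrix proteins and activates other metalloproteinases. Its level was 7.71, 7.86, 7.58 and 7.82 in pregnant mice after TiO2 and 7.75, 7.26, 7.63 and 7.37 in non-pregnant mice after TiO2. In the PBS groups it was 7.30, 7.04, 7.63 and 7.24 in pregnant mice and 7.12, 7.43, 7.05 and 7.38 in non-pregnant mice. Pregnant PBS replicate 3 overlapped the pregnant TiO2 arrays. The difference between TiO2 and PBS was 0.44 ± 0.14 in pregnant mice (adjusted p = 0.715 in limma) and 0.26 ± 0.14 in non-pregnant mice (adjusted p = 0.654). Mak and Nipa1 had the levels most like it, with Pearson correlations of 0.85 and 0.84.

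RefSeq promoter sequences, from 250 bases before to 50 after a transcription start, were matched for 6 of the 8 genes. None was at hand for Mmp2 and Mmp9, the called genes, so these were not searched. They were searched on both strands for the AP-1 motif TGAGTCA or its reverse complement TGACTCA, which Fos and Jun factors bind, and for the SP1 core GGGCGG or CCGCCC. Of these 6 genes only Mmp3 and Mmp12 had the AP-1 letters in this window. They lay 46 bases before the Mmp3 start and 44 before the second of 2 Mmp12 starts. Between TiO2 and PBS over both pregnancy states these genes differed by 0.35 ± 0.10 and 0.41 ± 0.08 (adjusted p = 0.634 and 0.321 in limma, neither called). In pregnant mice the difference was 0.44 for Mmp3 and 0.55 for Mmp12. It was 0.47 for Timp1 and 0.44 for Mmp14, which held no exact match to the letters. Whether the letters bear on these differences was not tested. The promoters with these letters are shown here in build GRCm38.p6, with the AP-1 letters in capitals.
Mmp3, chr9:7445572-7445871, plus strand: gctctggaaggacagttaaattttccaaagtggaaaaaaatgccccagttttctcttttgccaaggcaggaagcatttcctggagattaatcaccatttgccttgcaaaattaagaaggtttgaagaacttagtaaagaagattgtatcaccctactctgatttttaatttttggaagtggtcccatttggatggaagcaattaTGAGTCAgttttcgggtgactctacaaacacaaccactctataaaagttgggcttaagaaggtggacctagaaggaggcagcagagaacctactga
Mmp12, chr9:7347124-7347423, plus strand: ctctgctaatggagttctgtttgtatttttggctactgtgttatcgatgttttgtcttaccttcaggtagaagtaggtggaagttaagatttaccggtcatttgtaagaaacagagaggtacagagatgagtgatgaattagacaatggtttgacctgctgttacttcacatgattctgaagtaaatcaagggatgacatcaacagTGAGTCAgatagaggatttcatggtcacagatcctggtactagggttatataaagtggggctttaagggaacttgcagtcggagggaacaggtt
The first Mmp12 start had neither motif. Those of Mmp14, Timp1, Timp2 and Timp3 held the SP1 core and no exact match to the AP-1 letters. Variants of the AP-1 motif were not searched for. Of 32851 promoters of this length 5.2% held the AP-1 letters and 35.7% the SP1 core. A match describes these letters and does not show that a factor binds.

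Mmp14 (probe set 1448383_at), the membrane-bound enzyme MT1-MMP, cuts collagen at the cell surface and activates the Mmp2 precursor. Its level was 8.94, 9.36, 8.81 and 9.08 in pregnant mice after TiO2 and 8.67, 8.80, 8.77 and 8.57 in non-pregnant mice after TiO2. With PBS alone it was 8.60, 8.60, 8.69 and 8.53 in pregnant mice and 9.14, 8.51, 8.93 and 8.38 in non-pregnant mice. The pregnant TiO2 arrays lay above those of non-pregnant mice after TiO2 and of pregnant mice after PBS, while non-pregnant PBS replicates 1 and 3 reached into their range.

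The difference between TiO2 and PBS was 0.44 ± 0.15 in pregnant mice (adjusted p = 0.792 in limma) and -0.04 ± 0.15 in non-pregnant mice (adjusted p = 0.973). Pregnant TiO2 replicate 2 had the highest level, and without the 3 arrays that differ in tissue content the first was 0.34 ± 0.13. The difference between these responses was 0.48 ± 0.21 (95% interval 0.02 to 0.93, adjusted p = 0.542 in limma). Between pregnant and non-pregnant mice after TiO2 it was 0.34 ± 0.15 (adjusted p = 0.288 in limma). The pattern rested on the chosen probe set: for the other 2 Mmp14 probe sets, 1416572_at and 1440920_at, the difference between TiO2 and PBS in pregnant mice was 0.04 ± 0.15 and 0.17 ± 0.18.

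Timp1 (probe set 1460227_at) is an inhibitor that inflammatory signals induce, and it binds Mmp9 and its precursor. Its level was 7.56, 7.82, 7.39 and 7.68 in pregnant mice after TiO2 and 7.02, 7.27, 7.13 and 7.03 in non-pregnant mice after TiO2. After PBS it was 6.98, 6.83, 7.44 and 7.32 in pregnant mice and 7.41, 7.09, 7.005 and 7.26 in non-pregnant mice. After TiO2 every pregnant array lay above every non-pregnant one, but pregnant PBS replicate 3 and non-pregnant PBS replicate 1 reached into the pregnant TiO2 range.

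After TiO2 the difference between pregnant and non-pregnant mice was 0.50 ± 0.14 (95% interval 0.20 to 0.79), a fold of 1.41, with an adjusted p of 0.112 in limma. The difference between TiO2 and PBS was 0.47 ± 0.14 in pregnant mice (adjusted p = 0.706 in limma) and -0.07 ± 0.14 in non-pregnant mice (adjusted p = 0.927). Without the 3 arrays that differ in tissue content the first was 0.40 ± 0.15. The difference between these responses was 0.54 ± 0.20 (95% interval 0.13 to 0.96), with an unadjusted p of 0.0139 and an adjusted p of 0.507 in limma. Crip1, Dnajc1 and Ppp1r11 had the levels most like Timp1, with Pearson correlations of 0.88, 0.85 and 0.84.

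Timp2 (probe set 1454677_at), which also takes part in activating the Mmp2 precursor, and Timp3 (probe set 1449335_at), which is held in the matrix, did not pass the test in any comparison. Timp2 averaged 11.87 ± 0.08 in pregnant and 12.01 ± 0.16 in non-pregnant mice after TiO2, and 11.97 ± 0.04 in pregnant and 11.92 ± 0.05 in non-pregnant mice after PBS (SD, n = 4 each). Timp3 averaged 12.25 ± 0.07 in pregnant and 12.40 ± 0.06 in non-pregnant mice after TiO2, and 12.16 ± 0.17 in pregnant and 12.25 ± 0.29 in non-pregnant mice after PBS. In no comparison was the adjusted p of either gene below 0.436 in limma, and the groups overlapped in each.

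Their other probe sets did not all run with the chosen one. Timp2 has 5 others, of which 1433662_s_at had a difference of -0.33 ± 0.10 between pregnant and non-pregnant mice over both exposures (adjusted p = 0.160 in limma over all probe sets), against -0.05 ± 0.06 for the chosen one. Timp3 has 3 others, which differed by 0.34, 0.45 and 0.87 between TiO2 and PBS in non-pregnant mice, against 0.15 ± 0.12 for the chosen one, and none was called. On these 3 non-pregnant PBS replicate 3 had the lowest level of its group, at 10.97, 9.06 and 7.92, as it had on the chosen one, at 11.87. Without the 3 arrays that differ in tissue content, the chosen one differed by -0.06 ± 0.12. Of the 12 probe sets of the 8 genes that were not chosen, the second one of Mmp9 was the only one called in any comparison.

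**Figure D3:**
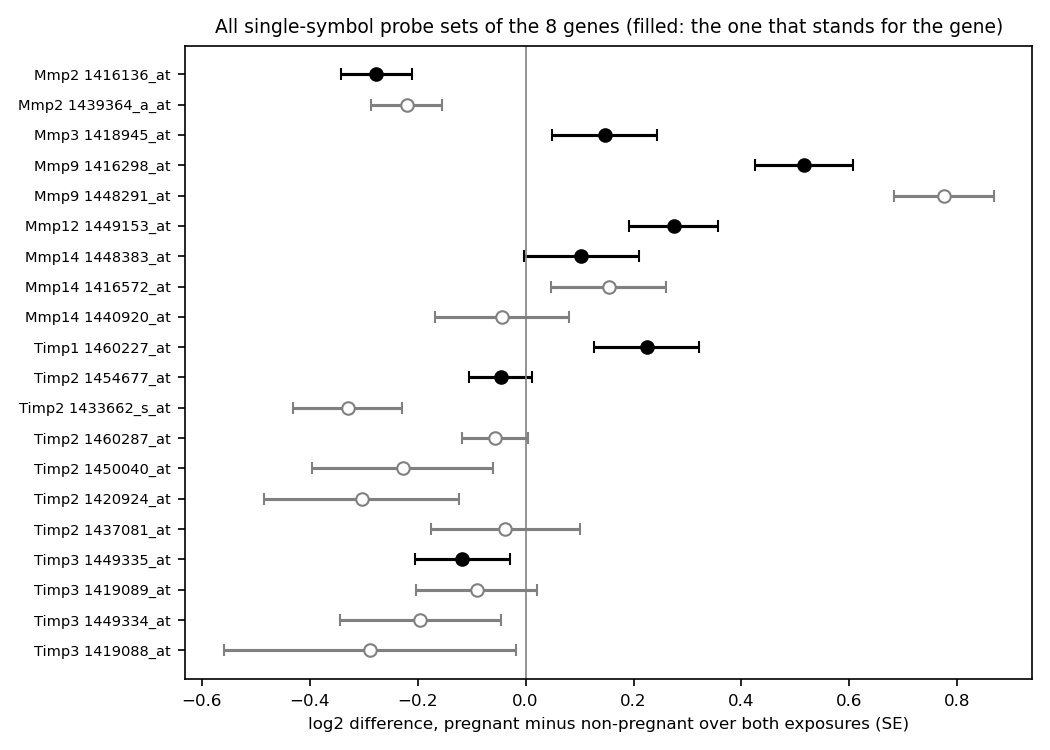
Log2 difference between pregnant and non-pregnant mice over both exposures, with its standard error, for the 20 single-symbol probe sets of the 8 genes; filled points mark the probe set that stands for the gene. Both Mmp9 probe sets lie right of 0, at 0.52 and 0.78, and both Mmp2 probe sets lie left of 0, at -0.28 and -0.22.

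Counts over the 8 genes were set beside those over all genes for each comparison. Between TiO2 and PBS in pregnant mice 5 of 8 had an unadjusted p below 0.05, against 5.91% of all genes, and 3 did not overlap between the groups (Mmp12 and Mmp14 higher, Mmp9 lower), against 3.81% of all genes. In non-pregnant mice the counts were 1 of 8, against 8.49% of all genes, and 0 without overlap, against 4.51%. The median difference of the 8 genes was 0.30 in pregnant and 0.02 in non-pregnant mice, against 0.00 and -0.02 over all genes. For the difference between these responses 2 of 8 (Mmp14 and Timp1) had an unadjusted p below 0.05, against 8.96% of all genes, and none was called, against 0.0055%.

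Between pregnant and non-pregnant mice after TiO2, 4 of 8 had an unadjusted p below 0.05, against 15.8% of all genes, and Mmp12, Mmp14 and Timp1 did not overlap, against 12.1%. After PBS, 2 of 8 had an unadjusted p below 0.05, against 10% of all genes, and the same 2, Mmp9 and Mmp2, did not overlap, against 4.94%. The median of the 8 genes was 0.29 after TiO2 and 0.00 after PBS, against 0.03 and 0.00 over all genes. With TiO2 and PBS compared over both pregnancy states, 3 of 8 (Mmp3, Mmp9 and Mmp12) had an unadjusted p below 0.05, against 5.74% of all genes, and none was called (0% of all genes).

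**Figure D4:**
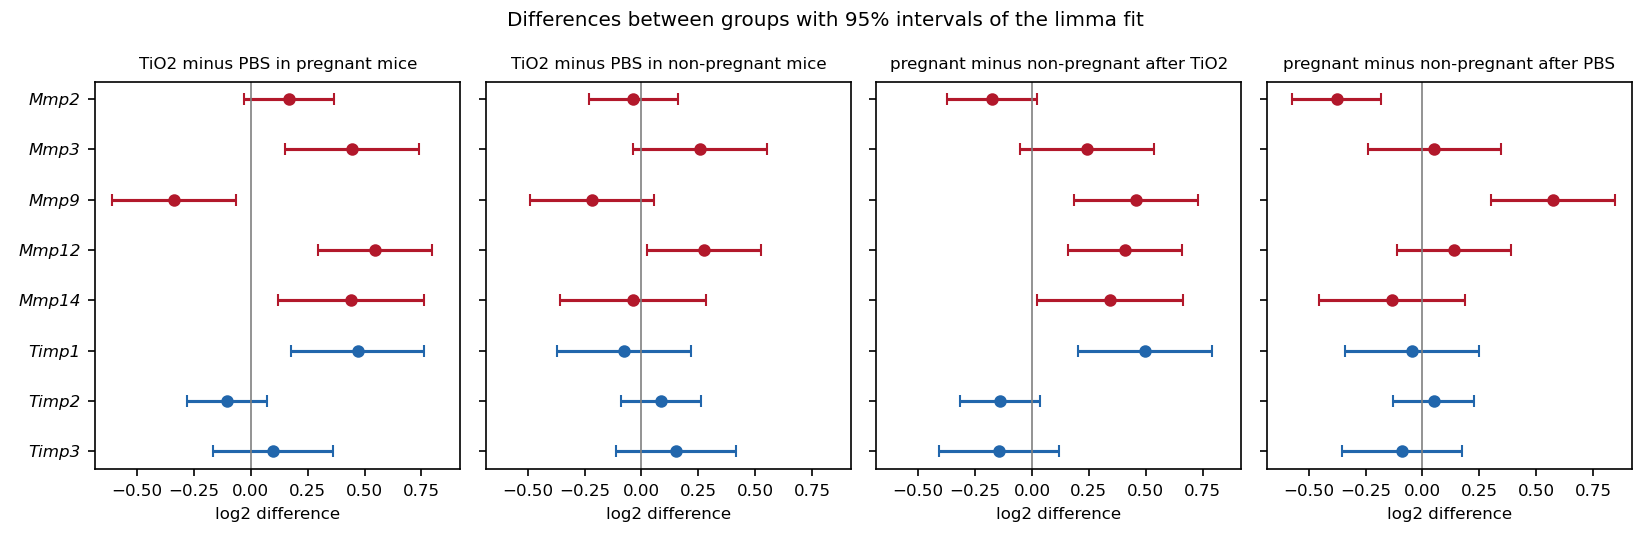
Log2 differences of the 8 genes in 4 comparisons with the 95% interval of the limma fit, metalloproteinases in red and inhibitors in blue. In pregnant mice the intervals of Mmp3, Mmp12, Mmp14 and Timp1 lie above 0 for TiO2 minus PBS, and that of Mmp9 lies below 0, but no gene in that comparison passed the adjusted test.

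All measured genes of the mesothelial, fat, thymus and lymph node venule lists had positive differences between the TiO2 responses of pregnant and non-pregnant mice. Mmp14 and Timp1 had the same sign. The lymph node venule list held 2 genes (median 0.95), of which 1 passed the expression filter, and none was called. Smooth muscle and cartilage lists were mixed, with 3 of 5 and 4 of 6 genes positive. Other lists went the other way. All 5 squamous epithelium genes (median -1.15), all 6 striated muscle genes (median -0.86) and all 6 alveolar epithelium genes (median -0.03) were negative. So were 7 of the 10 neutrophil genes (median -0.48). Pregnant TiO2 replicate 2 had the lowest mean of the squamous and striated muscle lists. Of mesothelium, all 4 of Msln, Wt1, Upk3b and Lrrn4 had a positive difference between TiO2 and PBS in pregnant mice (median 0.32) and a negative one in non-pregnant mice (median -0.21), and none was called. Their mean ran from 8.44 to 8.76 in pregnant mice after TiO2, against 7.88 to 8.40 in non-pregnant mice after TiO2. After PBS it ran from 8.07 to 8.53 in pregnant mice, against 8.35 to 8.61 in non-pregnant mice. Array by array the levels ran together on some arrays and not on others. Pregnant TiO2 replicate 2 had the highest mesothelial mean of the 16 arrays, at 8.76, and the highest Mmp14 and Timp1, at 9.36 and 7.82. Non-pregnant PBS replicate 2 had the highest mesothelial mean of its group, at 8.61, with Mmp14 at 8.51.

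For the difference between responses all 5 measured fat genes were positive, with a median of 1.33, and all 7 thymus genes, with a median of 1.504, and none was called. The fat mean ran from 7.62 to 9.50 in pregnant mice after TiO2, against 6.999 to 8.73 in non-pregnant mice after TiO2. After PBS it ran from 8.27 to 9.56 in pregnant mice, against 8.65 to 9.52 in non-pregnant mice. The high thymus values were those of non-pregnant PBS replicates 3 and 4, at 8.53 and 8.86, against 5.41 to 6.08 on the other 14 arrays. The part of pleural, fat, thymus or lymph node tissue in the Mmp14 and Timp1 values was not tested.

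Other genes of matrix proteolysis were read from a list of 48, of which 40 were measured and 30 passed the expression filter. Between pregnant and non-pregnant mice over both exposures 3 of 40 were called, all higher in pregnant mice, against 1.76% of all genes called higher, and after PBS alone 2 of 40, against 0.418%. None was called lower, and none was called in the other 5 comparisons. The median of the 40 was 0.02 over both exposures, against 0.01 over all genes.

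Mmp8, the collagenase of neutrophil granules, was one of the called genes and also stands in the neutrophil list. It read 6.15, 6.49, 7.25 and 7.15 in pregnant mice after TiO2, against 6.26, 6.67, 6.35 and 6.28 in non-pregnant mice after TiO2. After PBS it read 8.44, 8.87, 7.81 and 7.36 in pregnant mice, against 6.31, 7.06, 6.24 and 6.25 in non-pregnant mice. The pregnant PBS arrays stood above all others, and the difference was 1.65 ± 0.31 after PBS (adjusted p = 0.0210 in limma) and 1.01 ± 0.22 over both exposures (adjusted p = 0.0227). Between TiO2 and PBS in pregnant mice it was -1.36 ± 0.31 without overlap (adjusted p = 0.442 in limma), the same sign as Mmp9.

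Adam8, a membrane protease of leukocytes, was 0.89 ± 0.16 higher in pregnant mice after PBS (adjusted p = 0.0170 in limma) and 0.59 ± 0.11 higher over both exposures (adjusted p = 0.0106). Its level was 8.23, 8.37, 7.83 and 7.65 in pregnant mice after PBS, against 7.46, 6.82, 7.26 and 6.98 in non-pregnant mice. Timp4, another tissue inhibitor, was 0.53 ± 0.10 higher in pregnant mice over both exposures (adjusted p = 0.0139 in limma). Like the call of Mmp9, these calls over both exposures were lost with the values as deposited and with the array of conflicting labels counted as pregnant PBS. After PBS the Mmp8 call was lost without pregnant PBS replicate 1 or 2 or non-pregnant PBS replicate 1 or 4, with adjusted p up to 0.0889 in limma. That of Adam8 was lost without pregnant PBS replicate 1 or 2 or non-pregnant PBS replicate 4, with adjusted p up to 0.0649 in limma. The Mmp8 call over both exposures was lost without non-pregnant TiO2 replicate 1 or pregnant PBS replicate 1, with adjusted p up to 0.0522 in limma. Without the 3 arrays that differ in tissue content Mmp8 was no longer called in either comparison (adjusted p = 0.112 after PBS and 0.0652 over both exposures in limma), nor was Adam8 after PBS (adjusted p = 0.0630). Both calls after PBS were also lost with the array of conflicting labels counted as pregnant PBS, where Mmp8 differed by 1.64 (adjusted p = 0.155 in limma) and Adam8 by 0.54 (adjusted p = 0.487). With only the PBS groups in the fit the adjusted p in limma was 0.126 for Mmp8 and 0.193 for Adam8, and the Adam8 call was lost with the values as deposited (adjusted p = 0.132). Cathepsin K (Ctsk), a collagen-cutting protease, had the smallest p of the list between TiO2 and PBS over both pregnancy states. Its difference was 0.44 ± 0.12 in pregnant mice and 0.45 ± 0.12 in non-pregnant mice, without overlap in either, and its adjusted p over both states was 0.321 in limma.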

How the data were processed

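Whole lung RNA of 16 samples was measured on 1-colour Affymetrix arrays. The values the authors deposited are linear intensity values of 45101 probe sets. The tools GCOS, MAS5 and RMA are named, per the submitters' processing notes, while their versions and the one that made the deposited intensity values are not stated. The deposited intensities were not scaled between arrays: their trimmed mean ran from 137 to 263.

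From these, 64 control probe sets were left out, arrays were quantile-normalised and log2(value + 16) was taken, which understates changes of weak signals. Of 45037 probe sets 34945 had 1 gene symbol and 932 several; 34741 of the first matched a RefSeq table of GRCm38.p6 by Entrez identifier, used for names. Genes were tested with limma 3.58.1 in R 4.3.3, as 4 group means over 16 arrays with 12 residual degrees of freedom and Benjamini-Hochberg adjustment over 18193 genes within each of 7 comparisons. Replicate numbers only name arrays. Arrays of 1 group correlated between 0.939 and 0.991, and the number of arrays limits the precision. Correlations between the 8 genes used 100000 permutations.

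The 8 genes, the protease list, the marker lists and the scaling between arrays were chosen with earlier results of these data known. All 8 genes are described, listed protease genes that passed the test are named with the leading others, and the 3 most similar genes were found for each of the 8. Alternatives covered scaling, pseudocount, filter, probe set rule, spread estimate, array weights, arrays in the fit, the array with conflicting labels, 3 arrays that differ in tissue content, and each array left out. The fit was tested on simulated data. Diesel particles and the later time of the study were not analysed here.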

Additional observations from a re-analysis of the deposited data

Results flagged for a closer look

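In 2 of the 32 sets of 4 arrays (8 genes in 4 groups), 1 array stood apart from the other 3 by Dixon's criterion for an outlying value, and chance gives this in about 1 of 20 sets. For Mmp9, non-pregnant TiO2 replicate 2 was at 7.74, against 7.18 to 7.23 on the other 3 arrays of the group. The mean of the neutrophil list was 8.29 on that array and 7.85 to 7.97 on the other 3, and the second Mmp9 probe set read 6.52 there, as it did on replicate 3. Without that array the difference between pregnant and non-pregnant mice in Mmp9 passed the test after TiO2 (0.59, adjusted p = 0.0440 in limma) and after PBS (0.58, adjusted p = 0.0202). In that fit 30 genes were called after TiO2 and 85 after PBS. The array was picked by its own Mmp9 value, so leaving it out had to widen the TiO2 difference, and these passes are no support. The PBS difference itself did not change, while its SE fell from 0.13 to 0.10. For Timp2, non-pregnant TiO2 replicate 4 was at 12.24, against 11.90 to 11.94 on the other 3, while its other 5 probe sets did not agree on that array. On 1420924_at, 1433662_s_at and 1460287_at it had the lowest value of its group, at 9.88, 11.74 and 11.57, and on 1450040_at neither the lowest nor the highest. On 1437081_at it had the highest, at 4.84, but that probe set did not pass the expression filter and lay near a signal of 0, so its order carries little weight.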

How the results depend on the processing

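Over 28 alternative settings (27 for the comparisons that use all groups), no called difference of the 8 genes changed sign. The count of the 8 genes called between pregnant and non-pregnant mice over both exposures was 2. It was 0 with the values as deposited, 1 with scaling to a common trimmed mean, 0 with the array of conflicting labels counted as pregnant PBS, and 1 to 2 in fits that left out 1 array. After PBS it was 0 as reported, 2 with a pseudocount of 64, 1 with the filter on low values, 1 with the mean of all probe sets of a gene, 1 with an intensity trend, and 0 to 1 with 1 array left out. After TiO2 it was 0 as reported, 1 with the mean of all probe sets, and 0 to 1 with 1 array left out. In the other 4 comparisons it was 0 throughout. The Mmp9 call was lost in 2 of 27 settings and the Mmp2 call in 15 of 27, while both held when the 3 arrays that differ in tissue content were left out. The cause of these losses was not tested. The values as deposited shift the median of all genes by 0.12 between TiO2 and PBS in non-pregnant mice, by 0.13 between pregnant and non-pregnant mice after PBS and by -0.19 for the difference of responses. No paired analysis was possible because the labels give no replicate numbers shared between groups. With 4 arrays per group, differences near the spread between arrays (a median SD within groups of 0.203) could not be told from 0.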
